A study of Mus musculus with 14 samples.

Results

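Esrrb, Tfcp2l1, Tbx3, Zfp42, Prdm14, Nr5a2, Nr0b1 and Utf1 are nuclear regulators that mark or maintain naive pluripotency in mouse embryonic stem cells. These 8 genes were listed by symbol, with earlier results of these data known, out of 36335 named genes in a table of total counts and a table of conversion counts. All 8 passed the filters on low counts, which left 14641 genes for total RNA and 12678 for labelled RNA.

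Naive pluripotency is the state of the early epiblast before implantation, and in culture it is held in part by LIF, a cytokine that acts through Stat3. Tfcp2l1 is a transcription factor induced by LIF and Stat3, while Tbx3, Prdm14 and the orphan nuclear receptors Esrrb and Nr5a2 act in the same network. Zfp42 (also called Rex1) is a zinc finger protein used as a marker of naive cells, Nr0b1 (Dax1) is a nuclear receptor without a classical DNA-binding domain, and Utf1 is a chromatin-associated protein of undifferentiated cells. The enzyme that writes m6A has Mettl3 as its catalytic subunit. m6A is a methyl mark on mRNA which is known to speed the decay of many transcripts.

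The samples were E14 mouse embryonic stem cells, WT and Mettl3-KO, in 14 libraries. Both genotypes had been kept for 2 weeks on gelatin in serum and LIF with 200 nM INK128, which blocks the mTOR kinase and puts embryonic stem cells in a paused, diapause-like state. Both then received 100 µM S4U, a thiolated uridine that is built into new RNA, for 12 h, and were collected at 0, 1, 3 or 8 h after its removal (the chase). In SLAM-seq, iodoacetamide makes S4U read as C, so that RNA made during the pulse is counted through its T-to-C conversions. Each Mettl3-KO group had 2 libraries. In WT the 0 h and 3 h groups had 1 library each, and the 1 h and 8 h groups had 2. No unpaused cells and no unlabelled cells were analysed here. The labels do not say how many Mettl3-KO clones were used or whether replicates came from separate dishes, so the p-values rest on a spread that may be technical. The source field of the pair of Mettl3-KO 8 h libraries reads E15 and E16, while their cell line field reads E14 like all others.

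Total counts lay between 6108102 and 26654217 in 12 libraries. The shallow ones were replicate 2 of WT at 1 h, with 49154, and replicate 2 of Mettl3-KO at 3 h, with 602297, so results that rest on them are given with and without them. Mettl3 (chromosome 14, 52294841 to 52308741) stood in WT at 42.1 CPM ± 21.7 (SD, n = 6), where CPM is counts scaled to a library of 1000000, and in Mettl3-KO at 2.22 ± 1.54 (SD, n = 8). The 1 count of Mettl3 in WT 1 h replicate 2 does not check its label. The 2 lines also differed in Y-linked RNA, since Eif2s3y was between 0.14 and 1.02 CPM in deep WT libraries and between 41.04 and 69.5 in deep Mettl3-KO libraries, so differences between the genotypes cannot be told apart from other differences between the lines. The stem cell markers Pou5f1, Nanog, Sox2, Sall4 and Lin28a were detected in every deep library of both genotypes, with Nanog at 292 to 393 CPM in WT and 212 to 387 in Mettl3-KO.

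Promoter windows of 300 bases (250 before the annotated start to 50 after) were found in RefSeq for 6 of the 8 genes, with no entry for Tbx3 and Prdm14. Of these, 4 are shown because the results below turn on them: Tfcp2l1 had the largest difference in total RNA, Esrrb was called only in part of the settings tried, Zfp42 had the highest labelled share at 0 h, and Utf1 had more label left at 8 h in Mettl3-KO than in WT. Capitals mark matches to the motifs searched on both strands, and the sequences run 5′ to 3′ on the gene's strand (RefSeq, GRCm38.p6).
Tfcp2l1, chr1:118627695-118627994, plus strand: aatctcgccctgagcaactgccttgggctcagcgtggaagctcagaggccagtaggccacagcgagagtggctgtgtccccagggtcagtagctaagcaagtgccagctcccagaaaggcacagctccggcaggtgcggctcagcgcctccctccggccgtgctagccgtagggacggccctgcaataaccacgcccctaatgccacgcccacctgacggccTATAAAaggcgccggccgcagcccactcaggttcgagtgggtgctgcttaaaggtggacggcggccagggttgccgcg
Esrrb, upstream start, chr12:86360867-86361166, plus strand: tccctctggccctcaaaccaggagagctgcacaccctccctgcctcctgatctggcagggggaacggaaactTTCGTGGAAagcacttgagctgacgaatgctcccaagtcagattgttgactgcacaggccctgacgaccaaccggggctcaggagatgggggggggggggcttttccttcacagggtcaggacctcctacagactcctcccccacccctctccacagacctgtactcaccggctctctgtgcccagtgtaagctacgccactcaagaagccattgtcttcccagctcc
Zfp42, chr8:43306960-43307259, minus strand: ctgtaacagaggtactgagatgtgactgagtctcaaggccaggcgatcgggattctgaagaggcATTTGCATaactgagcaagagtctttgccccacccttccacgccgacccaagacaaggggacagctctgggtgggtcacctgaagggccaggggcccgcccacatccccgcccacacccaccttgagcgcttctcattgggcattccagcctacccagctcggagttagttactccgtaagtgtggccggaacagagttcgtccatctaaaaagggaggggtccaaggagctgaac
Utf1, chr7:139943606-139943905, plus strand: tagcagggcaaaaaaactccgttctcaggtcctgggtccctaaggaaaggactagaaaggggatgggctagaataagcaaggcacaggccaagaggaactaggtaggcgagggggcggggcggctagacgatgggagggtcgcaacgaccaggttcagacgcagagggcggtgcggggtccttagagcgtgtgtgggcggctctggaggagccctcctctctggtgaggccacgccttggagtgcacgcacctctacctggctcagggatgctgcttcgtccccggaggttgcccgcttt
Tfcp2l1 holds the TATA box TATAAA from 28 to 23 bases before its start, a motif found in 13.6% of 32851 promoters of this length. Nr0b1 holds the same letters from 32 to 27 bases before its start, and one Nr5a2 window holds them on the other strand. Esrrb holds a match to the STAT site TTCNNNGAA (8.30% of promoters), and Zfp42 holds the octamer ATTTGCAT bound by Oct4 (1.74% of promoters). The Utf1 window holds none of the 5 motifs searched. No window of the 6 genes holds TCAAGGTCA, an extended half-site bound by Esrrb and Nr5a2 (0.423% of promoters), or the E-box CACGTG (7.15%). A match is a description of these letters and not a sign of binding.

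Of the 8 regulators, 4 had less total RNA in Mettl3-KO than in WT cells: Tfcp2l1, Tbx3, Prdm14 and Esrrb. None had more. The model held chase time and genotype (edgeR quasi-likelihood test, Benjamini-Hochberg adjusted p under 0.05 over 14641 genes), and it called 9.99% of all genes lower and 12.1% higher in Mettl3-KO. The median log2 change was -1.004 over the 8 genes and 0.05 over all genes tested. In bulk RNA, fewer cells that express a gene and less RNA per cell cannot be told apart.

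Tfcp2l1 (chromosome 1, 118627923 to 118685168) is a transcription factor that maintains self-renewal downstream of LIF. In WT it stood at 758 CPM at 0 h, 975 at 1 h, 962 at 3 h, and 807 and 1083 at 8 h, with 491 CPM (23 counts) in the shallow 1 h library. In Mettl3-KO it stood at 173 and 154 CPM at 0 h, 139 and 162 at 1 h, 123 at 3 h (200.2 in the shallow library) and 83.5 and 83.6 at 8 h. Every Mettl3-KO library lay below every WT library, and the Mettl3-KO libraries at 8 h were the lowest of all. Tfcp2l1 fell by 2.71 on the log2 scale (SE 0.25, edgeR adjusted p = 1.21e-05). It was the only one of the 8 genes whose groups did not overlap over 14 libraries, and 1.84% of all genes were lower in this way.

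Tbx3 (chromosome 5, 119670534 to 119684724) is a T-box repressor that acts in naive cells and also in endoderm. WT levels were 333 CPM at 0 h, 489.8 at 1 h, 335 at 3 h, and 466 and 374 at 8 h, while the shallow 1 h library had 85.5 CPM from 4 counts. Mettl3-KO levels were 102 and 75.9 CPM at 0 h, 106 and 110.4 at 1 h, 39.8 at 3 h, and 34.04 and 38.1 at 8 h, with 168 CPM from 57 counts in the shallow 3 h library. The deep libraries of the genotypes were well apart and the shallow ones crossed between them. Tbx3 fell by 2.26 (SE 0.43, edgeR adjusted p = 0.00256), and in the 12 deep libraries the change was -2.76 (SE 0.23, edgeR adjusted p = 1.26e-07).

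Prdm14 (chromosome 1, 13113428 to 13127163) is a PR-domain protein that represses FGF signalling and DNA methyltransferase genes in naive cells. It was a low gene, at 31.5, 33.0, 26.5, 25.1 and 18.1 CPM in the 5 deep WT libraries. In Mettl3-KO it was at 12.4 and 11.8 CPM at 0 h, 18.06 and 15.7 at 1 h, 7.25 at 3 h, and 7.06 and 5.82 at 8 h, and the shallow libraries held 0 counts in WT and 1 in Mettl3-KO. The deep groups lay close to each other, with the lowest WT library just above the highest Mettl3-KO library. Prdm14 fell by 1.46 (SE 0.31, edgeR adjusted p = 0.00402). Without the shallow libraries the same 4 genes were called lower (19.3% of all genes), and 3 of the 8, Tfcp2l1, Tbx3 and Prdm14, were lower in Mettl3-KO without overlap, against 10.9% of all genes.

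Esrrb (chromosome 12, 86361117 to 86521628) is an orphan nuclear receptor that can stand in for Nanog in self-renewal. It was at 640.2 CPM at 0 h, 783 at 1 h, 738 at 3 h, and 599 and 661 at 8 h in WT. Mettl3-KO had 222 and 599 CPM at 0 h, 435 and 293 at 1 h, 338 at 3 h, and 344 and 376 at 8 h, and the shallow libraries had 363 in WT and 168 in Mettl3-KO. One Mettl3-KO library at 0 h reached the WT range while all other deep Mettl3-KO libraries lay below it. Esrrb fell by 0.90 (SE 0.27, edgeR adjusted p = 0.0278). The call was lost, with the log2 change between -0.96 and -0.73 and adjusted p from 0.0509 to 0.112, on leaving out any one of WT 0 h replicate 1, WT 1 h replicate 1, WT 3 h replicate 1, WT 8 h replicate 2 and both Mettl3-KO 8 h libraries in turn.

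**Figure D1:**
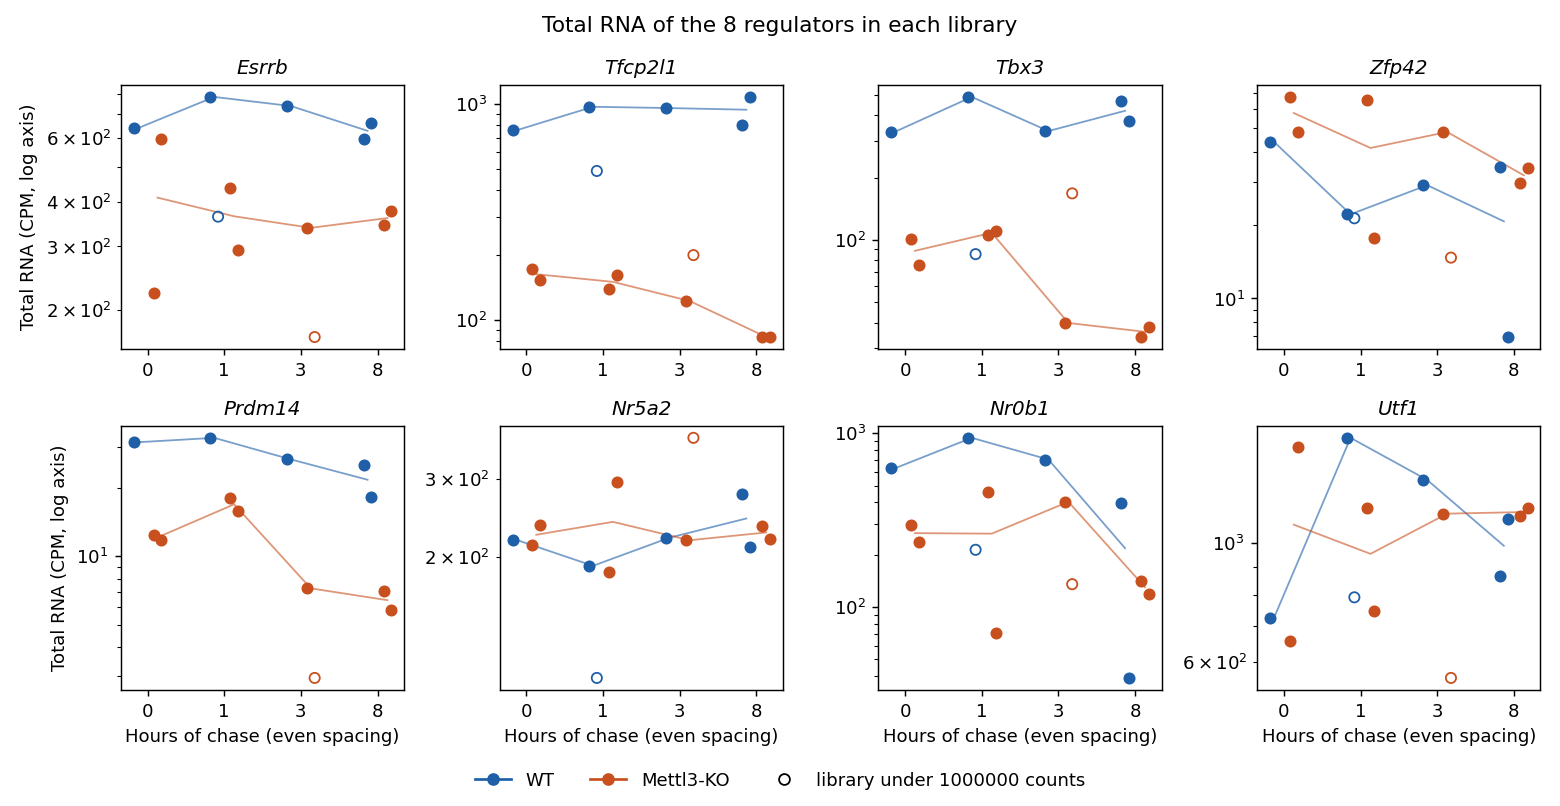
Total RNA of each of the 8 regulators in CPM (log axis, different range per panel) against hours of chase, drawn at even spacing, with WT in blue and Mettl3-KO in orange. Each point is 1 library, open points are the 2 libraries under 1000000 counts (Prdm14, with 0 counts in the WT one, is not drawn there), and lines join the means of the deep libraries; Tfcp2l1 points of the genotypes do not overlap, while those of Zfp42, Nr5a2, Nr0b1 and Utf1 do.

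The other 4 genes did not pass the test. Nr0b1 (chromosome X, 86191775 to 86195947), which binds and restrains Oct4 and Esrrb, was at 630 CPM at 0 h, 942 at 1 h, 706 at 3 h, and 397 and 39.1 at 8 h in WT. Mettl3-KO levels were 297 and 236 CPM at 0 h, 458 and 70.8 at 1 h, 404 at 3 h, and 141 and 120 at 8 h. The replicates at 8 h in WT and at 1 h in Mettl3-KO were far apart, and the log2 change was -1.11 with a wide error (SE 0.55, edgeR adjusted p = 0.176).

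Zfp42 (chromosome 8, 43295067 to 43307009) was at 44.1 CPM at 0 h, 22.2 at 1 h, 29.2 at 3 h, and 34.6 and 6.94 at 8 h in WT. In Mettl3-KO it was at 67.4 and 48.4 CPM at 0 h, 65.5 and 17.6 at 1 h, 48.4 at 3 h, and 29.8 and 34.4 at 8 h. The low libraries of Zfp42 were those of Nr0b1 as well, replicate 2 of WT at 8 h and of Mettl3-KO at 1 h. The shallow libraries rest on 1 count of Zfp42 in WT and 5 in Mettl3-KO. The log2 change of Zfp42 was 0.55 (SE 0.40, edgeR adjusted p = 0.359).

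Nr5a2 (chromosome 1, 136842562 to 136960448), a nuclear receptor that activates Pou5f1, ranged from 191 to 278 CPM in deep WT libraries and from 185 to 295 in deep Mettl3-KO libraries. Its log2 change was 0.22 (SE 0.21, edgeR adjusted p = 0.517). Utf1 (chromosome 7, 139943856 to 139945112) ranged from 723 to 1567 CPM in deep WT libraries and from 655 to 1505 in deep Mettl3-KO libraries, with a log2 change of -0.06 (SE 0.28, edgeR adjusted p = 0.916). For both genes the ranges of the genotypes largely overlapped. The shallow libraries had 107 CPM of Nr5a2 in WT and 371 in Mettl3-KO, and 791 and 559 of Utf1.

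Across the chase, total RNA of the 8 genes had no slope that passed in all 14 libraries (edgeR), in either genotype, and 0% of all genes passed. At an unadjusted p under 0.05 there were 0 of the 8 in WT and 3 in Mettl3-KO. The share of all genes at unadjusted thresholds was not counted, here and below. Without the shallow libraries 3 of the 8, again Tfcp2l1, Tbx3 and Prdm14, declined over the chase in Mettl3-KO, where 2.23% of all genes did. The slopes were -0.12 per hour for Tfcp2l1 (SE 0.03, edgeR adjusted p = 0.0166), -0.19 for Tbx3 (SE 0.04, edgeR adjusted p = 0.0116) and -0.15 for Prdm14 (SE 0.04, edgeR adjusted p = 0.0435), all on the log2 scale. In WT the same slopes were 0.02, 0.02 and -0.07, with none called. The difference in slope between the genotypes was called for 0 of the 8 genes by edgeR and by DESeq2 over 14 libraries, and at an unadjusted p under 0.05 for 2 by edgeR, Tfcp2l1 and Tbx3. In the deep libraries it was also called for 0 of the 8 (adjusted p = 0.0873 and 0.0831 for these genes), against 0.549% of all genes.

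Tfcp2l1 and Tbx3 also had less labelled RNA in Mettl3-KO at the end of the pulse. Conversion counts were set against the scaled total count of the library, so that they measure labelled RNA of a gene per unit of all RNA. The tested difference at 0 h is the value at 0 h of lines fitted over all hours. Libraries of every time therefore enter it. At 0 h these 2 of the 8 genes were called lower and 0 higher, against 6.52% (826) and 1.33% (168) of 12678 genes. The median difference was -1.06 over the 8 genes and -0.37 over all genes. Scaling by TMM factors of the conversion counts instead moved the median of all genes to 0.06 and the calls to 491 lower and 385 higher, and it kept the calls of Tfcp2l1 (-2.03) and Tbx3 (-1.76).

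At 0 h labelled Tfcp2l1 stood at 329 conversion counts (scaled like CPM) in WT and at 49.6 and 46.4 in Mettl3-KO. Labelled Tbx3 stood at 114 in WT and at 21.0 and 17.8 in Mettl3-KO. The fitted differences were -2.42 for Tfcp2l1 (SE 0.49, edgeR adjusted p = 0.00017) and -2.14 for Tbx3 (SE 0.50, edgeR adjusted p = 0.00198), close to those of their total RNA. Without WT 1 h replicate 1 the Tbx3 call was lost at -1.75 (edgeR adjusted p = 0.0578).

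Labelled Nr0b1 was at 356 in WT and at 128 and 97.6 in Mettl3-KO at 0 h. Its difference of -1.78 (SE 0.60) had an edgeR adjusted p of 0.0581, and it passed when any one of 5 libraries was left out. Without both shallow libraries Nr0b1 did not pass, at -2.01 (SE 0.78). Esrrb (-1.03, SE 0.47, edgeR adjusted p = 0.183) passed without the shallow libraries (-1.21, edgeR adjusted p = 0.0221, against 8.55% of all genes called lower) and without the WT one alone. The values of Prdm14, Utf1, Nr5a2 and Zfp42 were -1.09, -0.41, -0.18 and 0.27, and none passed.

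When labelled RNA was set against the gene's own total count instead, 0 of the 8 genes differed at 0 h at the adjusted threshold or at an unadjusted p under 0.05, and 0.00789% of all genes were called lower. Tfcp2l1 was then at -0.18 (SE 0.34) and Tbx3 at -0.45 (SE 0.37), where the median of all genes was -0.41.

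The labelled share, which is the conversion count as a percent of the total count of a gene, was at 0 h highest in Zfp42 among the 8 genes. It was 66.4% in WT (95% Wilson interval 63.1% to 69.5%, counting error only) and 51.4% and 47.2% in Mettl3-KO. Of 7650 genes with at least 200 counts in each 0 h library, 1.37% had a share this high in WT and 1.28% in Mettl3-KO (medians 46.3% and 31.3%). Nr0b1 followed with 56.5% in WT and 43.0% and 41.4% in Mettl3-KO, and it was above Zfp42 in WT at 1 h (50.9% against 42.7%) and at 3 h (31.0% against 27.6%). Tbx3 had 34.4% in WT, the lowest of the 8, and 20.6% and 23.4% in Mettl3-KO, where Prdm14 had 33.8% and 22.2%, and 85.0% of genes had a share at or above it in WT. Whole libraries had a labelled share of 39.4% in WT and of 26.1% and 26.6% in Mettl3-KO at 0 h. Shares at 0 h are to be read beside that gap. The shallow libraries had whole shares of 8.43% (WT 1 h) and 6.90% (Mettl3-KO 3 h), against 30.8% and 18.5% in replicate 1. Both enter the fits over 14 libraries.

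**Figure D2:**
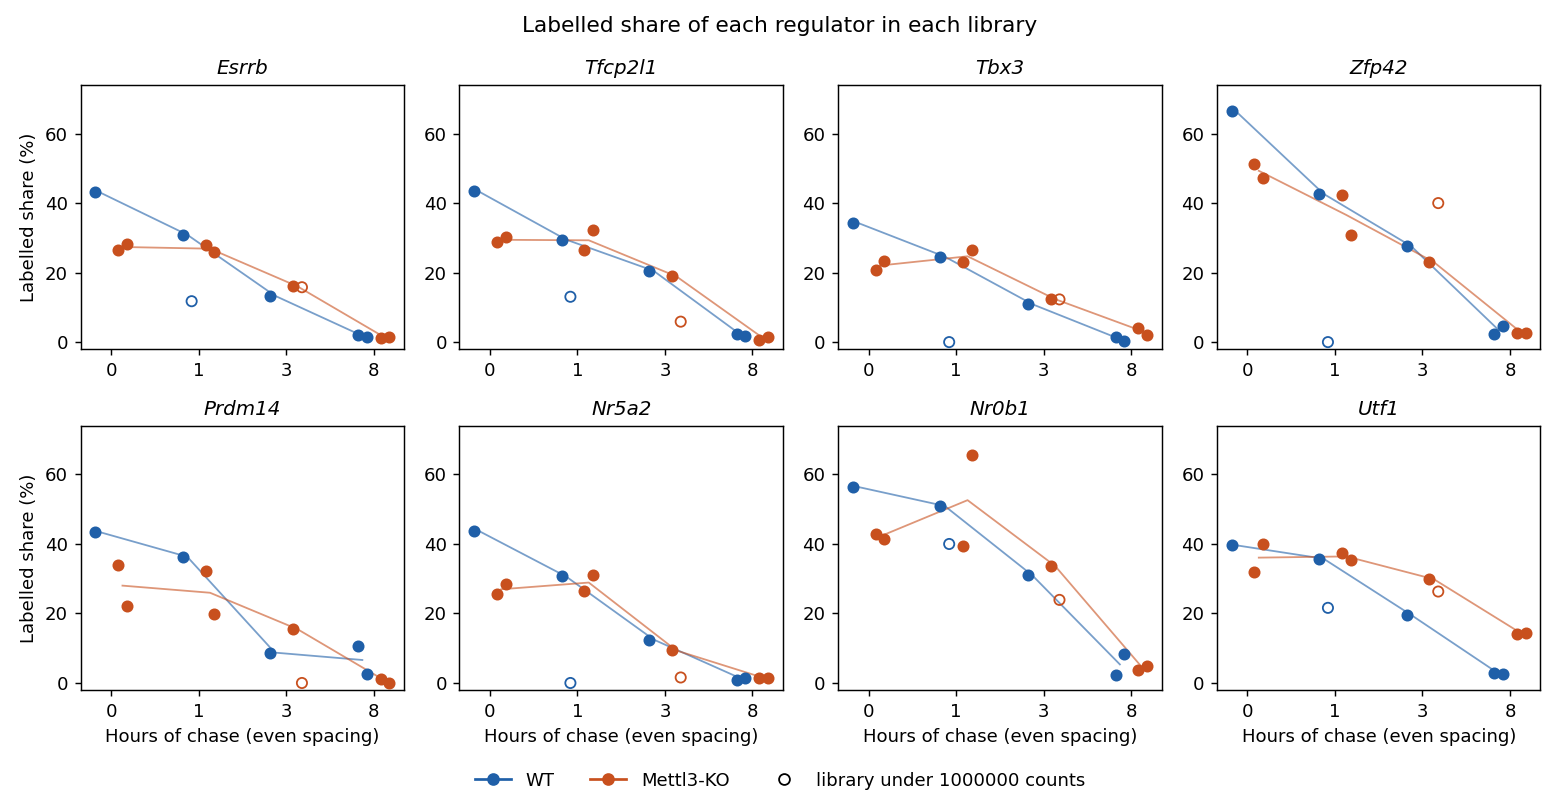
Labelled share of each of the 8 regulators (conversion counts as a percent of total counts) against hours of chase, drawn at even spacing, with WT in blue and Mettl3-KO in orange. Each point is 1 library, open points are the 2 libraries under 1000000 counts, and lines join means of deep libraries; by 8 h deep libraries are at 10.6% or less, except Utf1 in Mettl3-KO with 14.2% and 14.3%.

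All 8 regulators lost label over the chase in WT and all 8 lost it in Mettl3-KO, as did 91.1% and 88.1% of all genes. Half-lives, taken as the inverse of the fitted log2 slope and not corrected for cell division, had a median over all genes of 2.12 h in Mettl3-KO and 1.81 h in WT. In WT the 8 genes ran from 1.26 h for Nr0b1 to 2.70 h for Prdm14. In Mettl3-KO 7 of them ran from 1.21 h for Prdm14 to 1.75 h for Nr0b1, and Utf1 stood apart at 6.15 h. The slope of Utf1 in Mettl3-KO was -0.16 per hour on the log2 scale (SE 0.07, edgeR adjusted p = 0.0292).

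Utf1 lost label in both genotypes and had more of it left in Mettl3-KO at 3 h and 8 h. In WT its labelled share was 39.6% at 0 h, 35.8% at 1 h, 19.6% at 3 h, and 2.78% and 2.61% at 8 h. In Mettl3-KO it was 32.1% and 40.1% at 0 h, 37.5% and 35.3% at 1 h, 29.9% at 3 h, and 14.2% and 14.3% at 8 h. As a ratio to the share of its whole library, Utf1 was already higher in Mettl3-KO at 0 h, at 1.23 and 1.51 against 1.005 in WT, and at 1 h, at 1.49 and 1.32 against 1.16. At 3 h the ratio was 1.62 against 0.985. The shallow libraries gave 21.6% in WT at 1 h (8 of 37 counts) and 26.3% in Mettl3-KO at 3 h (50 of 190 counts).

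Behind the 8 h shares of Utf1 stood 352 of 12669 and 183 of 7005 counts in WT, and 1781 of 12556 and 4325 of 30224 counts in Mettl3-KO. The 95% Wilson intervals (counting error only) were 2.51% to 3.08% and 2.26% to 3.01% in WT, and 13.6% to 14.8% and 13.9% to 14.7% in Mettl3-KO. Whole libraries had shares of 4.52% and 3.72% in WT and of 4.90% and 4.97% in Mettl3-KO at 8 h. The Utf1 share was thus at 8 h 0.61 and 0.70 times that of its library in WT, and 2.90 and 2.88 times in Mettl3-KO.

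The difference in loss rate of Utf1 was 0.35 per hour on the log2 scale (SE 0.11), where a value above 0 means slower loss in Mettl3-KO. Its edgeR adjusted p of 0.0554 missed the threshold, so that 0 of the 8 genes were called, against 2.16% (274) of all genes called slower and 0.197% (25) called faster. With TMM factors of the conversion counts the split was 186 slower to 120 faster, and Tfcp2l1 was called faster (-0.32, edgeR adjusted p = 0.0425). At an unadjusted p under 0.05 there were 3 of the 8: Utf1, Prdm14 and Tfcp2l1. The share of all genes at that unadjusted threshold was not counted. Utf1 passed without the shallow libraries (0.38, edgeR adjusted p = 0.00126, against 5.05% of all genes called slower) and with DESeq2 (adjusted p = 0.0165). With its own total count as the scale it was at 0.32 (SE 0.06, edgeR adjusted p = 0.00048), the only one of the 8 genes to pass, against 3.23% of all genes called slower. All 14 fits that left out 1 library gave a difference between 0.29 and 0.41, and the edgeR adjusted p ran from 0.00658 to 0.232.

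Among 5088 genes with at least 200 counts in each 8 h library, 96 (1.89%) had a Mettl3-KO share at least as high as that of Utf1. Of these, 12 also had a WT share no higher than its mean of 2.70%, Utf1 included. The medians of these 5088 genes were 2.38% in WT and 2.60% in Mettl3-KO. Utf1 was thus near the middle of the genes in WT and in their top part in Mettl3-KO.

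**Figure D3:**
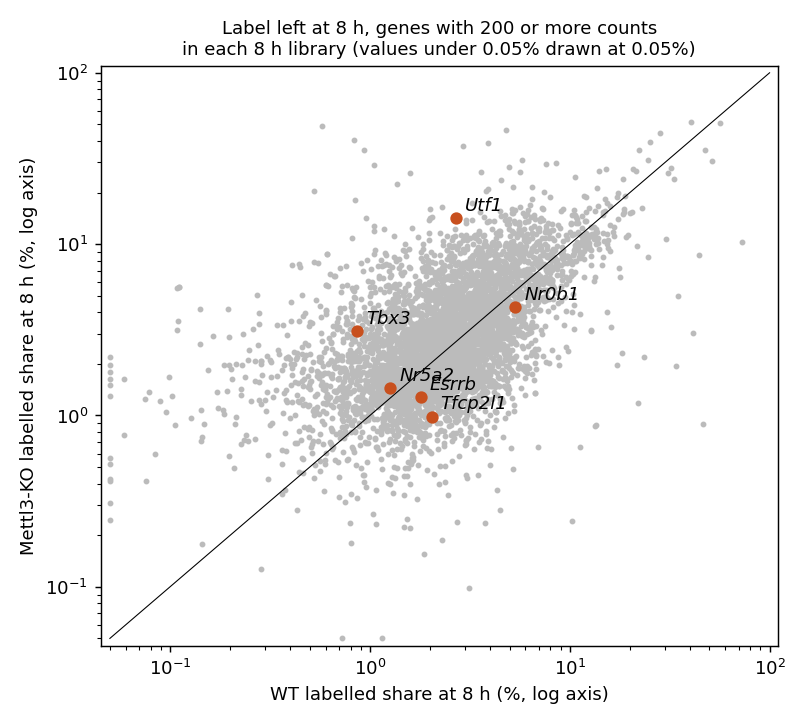
Mean labelled share at 8 h in Mettl3-KO against WT (percent, both axes log) for 5088 genes in grey and the 6 regulators that reach 200 counts in each 8 h library in orange; the line marks equal shares. Utf1 lies above the line at 2.70% in WT and 14.2% in Mettl3-KO, Tbx3 is also above it, and Tfcp2l1 is below it.

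For the other 7 genes the difference in loss rate did not pass in 14 libraries. Prdm14 was at -0.46 (SE 0.17, edgeR adjusted p = 0.12) and Tfcp2l1 at -0.24 (SE 0.11, edgeR adjusted p = 0.248), both toward faster loss in Mettl3-KO. Prdm14 rests on few labelled counts at 8 h: 39 of 367 and 3 of 115 in WT, and 1 of 79 and 0 of 152 in Mettl3-KO, where 0 counts allow a share of up to 1.97% (3 counts of the total) or 2.46% (upper bound of the 95% Wilson interval). The pair of WT replicates alone spanned 10.6% to 2.61%.

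Nr0b1 was at 0.22 (SE 0.14), Tbx3 at 0.04 (SE 0.12), and Zfp42, Nr5a2 and Esrrb lay between -0.03 and 0.03 with SE from 0.10 to 0.13. Tbx3 differed with the scale used: set against its own declining total RNA, its difference was 0.26 (SE 0.09, edgeR adjusted p = 0.0838), and 0.27 (SE 0.08, edgeR adjusted p = 0.0421, against 5.39% of all genes called slower) without the shallow libraries. Its labelled share at 8 h was 1.39% and 0.338% in WT and 4.20% and 2.01% in Mettl3-KO. The WT shares rest on 95 of 6813 and 8 of 2369 counts, and the Mettl3-KO shares on 16 of 381 and 20 of 995.

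**Figure D4:**
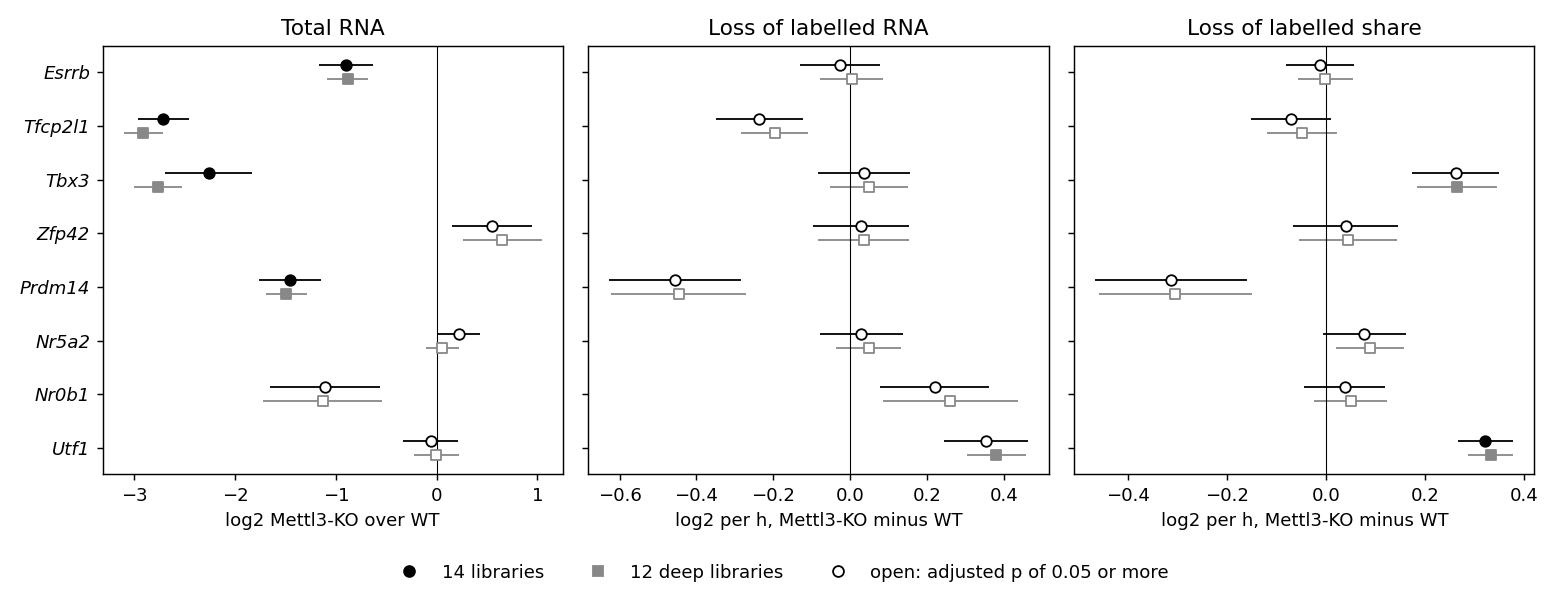
Difference between Mettl3-KO and WT for each of the 8 regulators in total RNA (log2), in loss of labelled RNA per unit of all RNA and in loss of labelled RNA per own total RNA (both log2 per hour, above 0 means slower loss in Mettl3-KO). Points are edgeR estimates with bars of 1 SE, black circles for 14 libraries and grey squares for the 12 deep ones, filled where the adjusted p is under 0.05; over 14 libraries 4 genes are filled for total RNA and Utf1 for loss per own total RNA, and over the deep ones Utf1 is filled for both kinds of loss and Tbx3 for loss per own total RNA.

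A half-life table by the authors lists 7 of the 8 genes among 6985, without Utf1, and names no unit. In the authors' deposited table, half-lives of 5 of the 7 genes (71.4%) are longer in Mettl3-KO, as are 83.4% of all genes there. The authors' deposited table gives Prdm14 as 2.14 in WT and 1.25 in Mettl3-KO and Tfcp2l1 as 1.94 and 1.71, the pair with shorter values in Mettl3-KO. For Tbx3 the authors' deposited table gives 1.49 and 2.55, for Nr5a2 1.55 and 2.74, and for Esrrb 1.70 and 2.70. For Nr0b1 the authors' deposited table gives 1.38 and 2.48, and for Zfp42 1.39 and 1.93. The fit here was over labelled RNA per unit of all RNA. In WT and Mettl3-KO it gave 1.75 h and 1.68 h for Esrrb, 1.62 h and 1.71 h for Tbx3, and 1.66 h and 1.74 h for Nr5a2. For Nr0b1 the fit gave 1.26 h and 1.75 h, and for Zfp42 1.55 h and 1.62 h. These values depend on the scale. With the own total count as the scale, WT and Mettl3-KO had 1.53 h and 2.54 h for Tbx3, 1.78 h and 1.92 h for Zfp42, and 2.04 h and 2.21 h for Nr0b1. On that scale Nr5a2 had 1.55 h and 1.76 h, and Esrrb 1.77 h and 1.73 h.

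The rest of the naive network was mixed. Of 21 partner genes tested, 2 rose and 6 fell in total RNA, where 12.1% of all genes rose and 9.99% fell. The median log2 change of the partners was -0.21. Klf5, a Krüppel-like factor of naive cells, fell by 4.30 (SE 0.44), Jam2, an adhesion protein, by 1.47 (SE 0.22), Tcl1, a cofactor of the Akt kinase, by 1.19 (SE 0.21) and Mybl2, a cell cycle transcription factor, by 1.41 (SE 0.26). Dppa3, a maternal factor that protects DNA methylation in the zygote, rose by 3.73 (SE 0.39) and Klf2 by 0.93 (SE 0.29). The core factors Nanog (-0.21), Pou5f1 (0.05) and Sox2 (0.03) did not pass. Without the shallow libraries 3 partners rose and 8 fell, where 21.9% of all genes rose and 19.3% fell.

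Of 20 genes that act upstream of naive factors, through LIF, Wnt, FGF or the exit from pluripotency, 3 rose and 5 fell. Their median was -0.16, and of all genes 12.1% rose and 9.99% fell. On the LIF branch, Stat3 fell by 0.73 (SE 0.22) and its receptor chain Il6st by 0.74 (SE 0.24). Lifr, on the same branch, lay the other way without being called, with medians in deep libraries of 106 CPM in WT and 149 in Mettl3-KO. Jak1 (80.6 to 143 CPM in WT and 65.5 to 139 in Mettl3-KO) and Socs3 (66.7 to 245 and 87.7 to 268) overlapped between the genotypes. Gsk3b, a kinase that restrains Wnt signalling, fell by 0.65 (SE 0.18) and Flcn, which keeps the transcription factor Tfe3 out of the nucleus, by 1.02 (SE 0.34). Fgfr2, an FGF receptor, rose by 2.95 (SE 0.56), Tfe3 itself by 0.69 (SE 0.22) and Mbd3, a repressor subunit, by 0.69 (SE 0.24). The level of Fgfr2 was low, at 0.158 to 2.53 CPM in deep WT libraries and 2.74 to 10.3 in deep Mettl3-KO libraries. In loss rate edgeR called 0 of 20 partners and 0 of 20 upstream genes, against 2.16% of all genes called slower and 0.197% called faster. At an unadjusted p under 0.05 there were 0 and 3, and the share of all genes there was not counted. With the own total count as the scale 1 of 20 partners and 0 of 20 upstream genes were called slower in Mettl3-KO, against 3.23% of all genes. The partner was Klf4, singled out after its value was seen, at 0.36 (SE 0.06, edgeR adjusted p = 0.000136).

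Markers of neighbouring cell states were read from the same fit of total RNA, in which 12.1% of all genes rose and 9.99% fell. Of 13 primitive endoderm markers tested, 8 fell and 1 rose, with a median of -1.95. Their summed level in deep libraries was 1204 to 2104 CPM in WT and 626 to 792 in Mettl3-KO. Most of that sum was Sparc (medians of 1220 CPM in WT and 503 in Mettl3-KO). Of 13 primed epiblast markers 7 rose and 2 fell (median 1.38), summed at 1529 to 1828 CPM in WT and 1800 to 2917 in Mettl3-KO, with Fgf5 at 0 in all deep Mettl3-KO libraries. Of 6 neural markers 3 rose and 1 fell, summed at 75.9 to 101 CPM in WT, where Neurog1 was at 0, and 475 to 745 in Mettl3-KO. Most of the Mettl3-KO sum was Stmn2 (medians of 14.7 CPM in WT and 479 in Mettl3-KO) and Tubb3 (13.6 and 113), while Sox1, the highest of the 6 in WT, fell (47.2 and 6.03). Of 7 trophoblast markers 1 rose, Tfap2c, at 31.7 to 46.0 CPM in WT and 85.2 to 107 in Mettl3-KO. The trophoblast sum, 65.03 to 87.4 CPM in WT and 113 to 141 in Mettl3-KO with Elf5 at 0 in all deep libraries, was mostly Tfap2c in Mettl3-KO. The median log2 change of these markers was -0.27, and -0.63 without the shallow libraries. There 3 fell (Cdx2, Gata3 and Krt8) and 1 rose, where 19.3% of all genes fell and 21.9% rose. Fibroblast markers (1 of 4 fell, with Lum at 0 in WT) summed to 17.9 to 31.3 CPM in WT and 8.24 to 12.8 in Mettl3-KO. Mesoderm markers (1 of 3 rose and 1 fell) summed to 4.14 to 10.3 and 6.39 to 10.8 CPM, ranges that overlap. Of the markers of 2-cell-like cells 1 was tested and not called, and all of them summed to at most 3.47 CPM in deep libraries. The part of such cells in the lower Tfcp2l1, Tbx3, Prdm14 and Esrrb was not tested.

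Across the 12 deep libraries the 4 regulators that were lower in Mettl3-KO varied together in total RNA to different degrees. Pearson's r of log2 CPM was 0.97 between Tfcp2l1 and Tbx3, 0.94 between Tbx3 and Prdm14, 0.87 between Tfcp2l1 and Prdm14, and for Esrrb 0.78 with Tfcp2l1, 0.72 with Tbx3 and 0.68 with Prdm14. Zfp42 and Nr0b1 had r = 0.60, and Utf1 had r between -0.41 and 0.54 with the other 7. These libraries share genotype and time, so r describes their common differences and carries no test. Of all genes tested, the closest in pattern to Tfcp2l1 were Dsg2 (r = 0.997) and Xaf1 (0.994), to Tbx3 C330024D21Rik (0.983) and Mme (0.982), and to Prdm14 Cdk5rap1 (0.981) and Fam107b (0.961). The closest to Esrrb were Cuedc2 (0.979) and Rrp36 (0.957), to Zfp42 Ugcg (0.985) and Net1 (0.980), and to Nr0b1 Dffb (0.973) and Ftl1-ps1 (0.953). Nr5a2 and Utf1 had no gene as close, with Gm9506 (0.917) and Rnf8 (0.852) for Nr5a2 and Glt1d1 (0.917) and Zfp385a (0.917) for Utf1.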

How the data were processed

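The authors deposited whole-number counts per gene in a table of total counts and a table of T-to-C conversion counts. Tools and builds in the submitters' processing notes are mm10, edgeR 3.32.1, Subread 1.5.0, featureCounts and Trim Galore 0.4.0. Not given in the sources used here are the aligner, how conversions were called, and if they were counted as reads or as bases. For 152 genes, none of the 8, a library holds more conversion than total counts. The Wilson intervals take conversions as reads among the total count, and would not hold if bases were counted. A table by the authors holds half-lives, deposited with no unit, and correlation scores, all at or below -0.80. A table of log2 values was not used here. The 1 unnamed entry (at most 0.0312% of a library) was left out.

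Tests used edgeR 4.0.16 in R 4.3.3 (quasi-likelihood, robust, TMM) over all genes with at least 10 counts in 6 libraries, or 10 conversion counts in 3. All 14 libraries shared each fit, so that lone libraries borrow their spread from other groups. Labelled RNA was fitted on genotype, hours and their interaction, scaled by total counts or by the gene's own count plus 0.5. Alternatives were DESeq2 1.42.0, other scalings and count filters, a replicate block, and fits without single or both shallow libraries. The scripts were checked on simulated counts with known changes. SE is the estimate over the square root of F.

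The 8 genes, the lists and the tests were chosen with earlier results of these data known. Genes named are the 8, Mettl3, the 2 genes closest to each of the 8, up to 4 per list and direction, and Nanog, Pou5f1 and Sox2, except where stated. Eif2s3y, Lifr, Jak1, Socs3 and the other stem cell and marker genes named were added as checks. Positions and promoters are from RefSeq (GRCm38.p6).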

Additional observations from a re-analysis of the deposited data

Results flagged for a closer look

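The labelled share of each regulator was divided by the share of its whole library and looked at over the libraries of a genotype, as was its total RNA, in 32 groups of values. In 4 groups 1 library stood far from the others. Every one of the 4 is a shallow library, with few counts of the gene and a low share of the whole library. Chance gives about 1 such group in 20. Mettl3-KO 3 h replicate 2 had a share of 6.90% over the whole library, against 18.5% in replicate 1. Its ratio was 2.29 for Esrrb (next library 1.104), 1.78 for Tbx3 (next 0.99) and 5.79 for Zfp42 (next 1.97, from 2 of 5 counts). The shares of these genes there were 15.8%, 12.3% and 40.0%, against 16.0%, 12.4% and 23.0% in replicate 1. In WT 1 h replicate 2, with a library share of 8.43% (30.8% in replicate 1), the ratio was 2.57 for Utf1 (next 1.16, from 8 of 37 counts). The share of Utf1 was 21.6% there and 35.8% in replicate 1.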

How the results depend on the processing

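The number of the 8 genes called in total RNA was 3 to 4 in every alternative run, with Esrrb the gene that was lost, and the number with a different slope of total RNA stayed at 0. Of all genes, 1769 rose and 1462 fell in 14 libraries, against 3189 and 2812 without both shallow libraries, 1097 and 973 with no count filter, and 2459 and 2358 with DESeq2. On leaving out 1 library 1206 to 2800 rose and 953 to 2481 fell, the highest without Mettl3-KO 3 h replicate 2. The slope of total RNA differed for 0 genes, against 35 above and 45 below 0 without both shallow libraries and 82 and 115 with DESeq2. Labelled RNA at 0 h was called for 0 of the 8 genes with the own total count as scale and for 1 to 3 on leaving out 1 library. With only the 1 h and 8 h libraries, where the value at 0 h is extrapolated and no 0 h library enters, it was called for 0. Over all genes the lower calls were 826, against 1 with the own total count, 312 to 1015 on leaving out 1 library and 125 with only 1 h and 8 h. TMM factors of the conversion counts take out the loss shared by all genes by construction. With them label loss was called for 0 of 8 genes in WT and for 4 in Mettl3-KO. Of all 12678 genes tested, label loss was then called for 318 in WT and 1168 in Mettl3-KO.

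The loss rate difference was called for 1 gene without both shallow libraries, 1 with DESeq2, 1 with the stricter count filter and 1 with the own total count (Utf1 each time), and for 1 with conversion TMM factors (Tfcp2l1, -0.32). It was called for 2 with the own total count and without both shallow libraries, an alternative chosen after seeing the data, and for 0 to 1 on leaving out 1 library. Over all genes, slower calls went from 274 to 640 without both shallow libraries, 620 with DESeq2, 118 with only 1 h and 8 h and 38 (the lowest) to 550 on leaving out 1 library, and the split of slower against faster calls was 186 to 120 with conversion TMM factors.

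Signs turned for estimates that were not called. Labelled RNA at 0 h turned for Zfp42 (-0.35 with the own total count), Nr5a2 (0.22 with conversion TMM factors) and Utf1 (0.077 with conversion TMM factors). For Nr5a2 it also turned when extrapolated from only 1 h and 8 h (0.57). The loss rate difference turned for Esrrb (0.0039 without both shallow libraries), and with conversion TMM factors for Tbx3 (-0.045), Zfp42 (-0.057) and Nr5a2 (-0.048), which with only 1 h and 8 h were at -0.022, -0.060 and -0.051. On leaving out 1 library the ranges were -0.21 to 0.13 for Utf1 in total RNA and -0.77 to 0.067 at 0 h, and in loss rate -0.067 to 0.0083 for Esrrb, -0.055 to 0.23 for Tbx3, -0.028 to 0.10 for Zfp42 and -0.00019 to 0.070 for Nr5a2. The cause was not tested.

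The correlation of deviations between replicates of the same number was -0.0747 to 0.237 over 15 pairs of groups. It was above 0.1 in 2 pairs, WT 1 h with Mettl3-KO 3 h (0.237, both with a shallow library) and WT 8 h with Mettl3-KO 1 h (0.175, the pair with low Zfp42 and Nr0b1 in replicate 2), so the numbers were not taken to pair the samples. A model with the replicate block called 4 of the 8 genes in total RNA, 0 in its slope, 2 at 0 h, 8 and 8 in label loss and 0 in loss rate, and over all genes moved the lower calls at 0 h from 826 to 479.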

Other observations

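Zfp42 and Nr0b1 shared their low libraries. Zfp42 was 4.98-fold lower in WT 8 h replicate 2 than in replicate 1 and 3.71-fold lower in Mettl3-KO 1 h replicate 2, and Nr0b1 was 10.2-fold and 6.47-fold lower. Of 6229 genes with at least 20 CPM in replicate 1 of both groups, 68 (1.09%) were at least 3-fold lower in replicate 2 in both, and 0 genes were as much higher. The labelled share of Nr0b1 was higher in these low libraries, at 8.47% against 2.22% in WT at 8 h and at 65.7% against 39.5% in Mettl3-KO at 1 h. For Zfp42 it was 4.55% (2 of 44 counts) against 2.38% in WT and 30.8% against 42.4% in Mettl3-KO.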
